A study of Mus musculus with 4 samples.

Results

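Fatty acid uptake and oxidation was followed through 33 genes in hearts of mice taken on day 15 after birth, by ribosome profiling, which sequences the mRNA fragments that ribosomes protect. The genes were chosen by name for their step in the pathway, and all 33 were found among the 55382 genes of the tables. Earlier results of these data were known at that choice, so counts of members beside all genes are descriptions and not tests. They fall into 7 steps: 4 genes of uptake, 5 of activation and control of acyl-CoA, 4 of the carnitine shuttle, 8 of beta oxidation, 4 auxiliary enzymes for unsaturated chains, 4 of electron transfer (with the uncoupling protein Ucp3) and 4 of lipid droplet storage and lipolysis. Hearts with a conditional knockout of Nat10 (KO, 2 libraries) were compared with control hearts (WT in the titles, FF in the library names, 2 libraries). NAT10 is an RNA cytidine acetyltransferase that also takes part in ribosome assembly. The labels give neither the Cre driver of the knockout, nor the strain or sex, nor whether a library is 1 heart or a pool, and all 4 libraries carry 1 batch label. They name cardiomyocytes as the cell type, while the protocols describe about 100 mg of whole heart tissue.

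The adult heart draws most of its energy from long-chain fatty acids, and the enzymes for their use increase after birth as the heart turns from glucose and lactate to fat. Fatty acids are freed from lipoproteins, carried through the membrane and bound in the cytosol, then joined to coenzyme A. The carnitine shuttle moves the acyl groups into mitochondria, where repeated rounds of dehydrogenation, hydration, dehydrogenation and thiolysis shorten them and pass electrons to the respiratory chain. Genes of this pathway are classical targets of the nuclear receptors PPARα and ERRα with the coactivator PGC-1α.

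Each library gave a footprint level per gene in FPKM, which scales fragments by gene length and library total, and a translation efficiency (TE), the authors' ratio of footprint to RNA. Their quotient is the RNA level behind the ratio and is called the implied RNA level. A footprint level above 0 was listed for 16425 to 16900 genes of a library, and read depth is unknown because FPKM keeps no read total. Nat10 had footprint levels of 40.01 and 52.1 FPKM in KO, against 77.3 and 73.9 FPKM in WT (log2 difference -0.71, SE 0.30, adjusted p = 0.295). For RNA it read 5.62 and 6.69 FPKM in KO, against 7.02 and 8.34 FPKM in WT (log2 difference -0.32, SE 0.25, adjusted p = 0.424), and its TE was 7.12 and 7.78 in KO, against 11.02 and 8.86 in WT (adjusted p = 0.915). The groups did not overlap in any of the 3 measures, with KO the lower, but no difference passed limma's test. Nothing in the labels says that the replicates of a group are separate hearts. A p-value therefore reflects only how these libraries spread, which may be technical spread.

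Markers of the labelled cell type were abundant, and the footprints of fibroblast and endothelial markers summed higher in both KO libraries. The 10 cardiomyocyte markers summed to 192618 and 199435 FPKM of footprints in KO, against 280468 and 326000 FPKM in WT. Of these markers 9 had a footprint difference below 0, with a median log2 difference of -0.49. For footprints 0 of 10 passed limma's test (1 at an unadjusted p under 0.05, where 17.3% of all genes tested were). Their RNA summed to 32933 and 25712 FPKM in KO, against 36600 and 40945 FPKM in WT. In RNA 8 of 10 were below 0 (median -0.42, against 0.22 for all genes). There 0 of 10 passed limma's test (3 at an unadjusted p under 0.05, where 28.3% of all genes tested were). The 10 fibroblast markers summed to 53776 and 69699 FPKM in KO, against 25081 and 20122 FPKM in WT, and all 10 read higher in both KO libraries than in both WT libraries, as did 39.5% of all genes, with 0 past the test for footprints (10 at an unadjusted p under 0.05) and 2 higher for RNA (Tcf21 and Postn). In RNA 2 of the 10 fibroblast markers were below 0, against 35.4% of all genes, and their median was 0.94, against 0.22. Endothelial markers summed to 7287 and 9589 FPKM in KO, against 5658 and 5954 FPKM in WT. Of these sums Fabp4 alone made up 4914 and 5860 FPKM in KO, against 3661 and 4154 FPKM in WT. The median endothelial log2 difference was 0.54 in footprints, against 0.36 for all genes. In RNA it was -0.005, against 0.22 for all genes, and 5 of 10 were below 0, as were 35.4% of all genes. Macrophage markers summed to 993 and 2161 FPKM in KO, against 622 and 1060 FPKM in WT for footprints, which overlap. For RNA they summed to 293 and 230 FPKM in KO, against 127 and 121 FPKM in WT, with C1qa and Lyz2 called higher. In RNA 8 of the 10 read higher in both KO libraries than in both WT libraries, as did 44.2% of all genes. Markers of smooth muscle and pericytes summed to 5477 and 5926 FPKM in KO, against 6025 and 6357 FPKM in WT for footprints. For RNA they summed to 1903 and 1179 FPKM in KO, against 1060 and 1076 FPKM in WT, with Tagln higher in both measures. Of these 10 markers 6 were below 0 in RNA, as were 35.4% of all genes, with a median of -0.03, against 0.22. In footprints 2 were below 0, with a median of 0.46, against 0.36 for all genes. In bulk tissue, fewer cells of a type and less RNA per cell cannot be told apart, and the part of these shifts in the results below was not tested.

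Promoter sequences were read for features that the choice of members did not use. A RefSeq window of 300 bases (250 before to 50 after the gene start, GRCm38.p6) was at hand for 26 of the 33 members. The nuclear receptor motif AGGTCA, searched on both strands, stood in the windows of 7 of the 26 members (26.9%), against 18.1% of 27025 gene symbols with a window. These 7 were Cd36, Acacb, Cpt1a, Acadm, Acadvl, Ucp3 and Plin5. The longer ERR-type motif TCAAGGTCA, which contains AGGTCA, was found in 0 of 26 members and in 0.466% of all symbols, and the direct repeat of AGGTCA spaced by 1 base in 0 of 26 members and in 0.0481% of all symbols. The GC box GGGCGG, on either strand, stood in 18 of 26 members (69.2%), against 38.2% of all symbols. CCAAT stood in 13 of 26 members (50%), against 41.1% of all symbols, and TATAAA in 1 member, Acacb, against 15.7% of all symbols. The symbols of this comparison were not limited to the genes tested here, nor matched to the members in level or base content. A match is a run of letters and not evidence of binding.

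The windows of 7 members are printed 5′ to 3′ on the strand of the gene, because these members pass a test below or, for Ucp3, have the largest difference. Where a gene has several windows, the first is printed. Capitals mark GC boxes in the windows of Cpt2 (chr4:107923540-107923839, minus strand), Ech1 (chr7:28825088-28825387, plus strand) and Acads (chr5:115119297-115119596, minus strand). They mark AGGTCA, or its reverse complement, in the windows of Acadm (chr3:153944594-153944893, minus strand), Plin5 (chr17:56117499-56117798, minus strand) and Ucp3 (chr7:100472741-100473040, plus strand). The first window of Slc27a1 (chr8:71568621-71568920, plus strand) has neither motif.
Cpt2: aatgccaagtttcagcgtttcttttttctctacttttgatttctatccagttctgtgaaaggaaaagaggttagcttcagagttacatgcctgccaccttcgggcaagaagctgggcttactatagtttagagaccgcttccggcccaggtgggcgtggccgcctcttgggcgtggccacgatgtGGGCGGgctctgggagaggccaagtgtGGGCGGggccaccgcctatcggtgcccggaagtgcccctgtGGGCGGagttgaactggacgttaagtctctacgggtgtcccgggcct
Ech1: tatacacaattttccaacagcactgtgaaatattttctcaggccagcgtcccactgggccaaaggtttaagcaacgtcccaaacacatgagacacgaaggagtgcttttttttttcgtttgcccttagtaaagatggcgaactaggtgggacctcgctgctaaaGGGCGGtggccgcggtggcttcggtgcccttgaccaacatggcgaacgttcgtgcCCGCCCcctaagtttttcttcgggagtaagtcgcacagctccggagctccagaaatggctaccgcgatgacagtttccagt
Acads: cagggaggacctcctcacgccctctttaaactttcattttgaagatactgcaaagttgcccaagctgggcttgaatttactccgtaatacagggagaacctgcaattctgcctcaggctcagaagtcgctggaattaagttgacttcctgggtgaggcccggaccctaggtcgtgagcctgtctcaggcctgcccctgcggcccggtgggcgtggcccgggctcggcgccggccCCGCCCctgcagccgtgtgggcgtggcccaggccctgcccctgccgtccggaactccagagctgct
Slc27a1: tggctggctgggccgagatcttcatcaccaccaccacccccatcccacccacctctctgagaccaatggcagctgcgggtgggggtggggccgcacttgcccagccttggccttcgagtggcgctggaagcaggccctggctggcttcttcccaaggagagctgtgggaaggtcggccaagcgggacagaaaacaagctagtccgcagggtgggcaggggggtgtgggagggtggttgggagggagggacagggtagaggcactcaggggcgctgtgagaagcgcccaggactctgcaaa
Acadm: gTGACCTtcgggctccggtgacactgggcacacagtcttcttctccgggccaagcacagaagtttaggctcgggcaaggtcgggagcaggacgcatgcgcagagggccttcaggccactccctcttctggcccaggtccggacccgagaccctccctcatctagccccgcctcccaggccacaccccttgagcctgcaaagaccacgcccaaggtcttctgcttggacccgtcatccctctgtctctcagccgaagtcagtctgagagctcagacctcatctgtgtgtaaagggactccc
Plin5: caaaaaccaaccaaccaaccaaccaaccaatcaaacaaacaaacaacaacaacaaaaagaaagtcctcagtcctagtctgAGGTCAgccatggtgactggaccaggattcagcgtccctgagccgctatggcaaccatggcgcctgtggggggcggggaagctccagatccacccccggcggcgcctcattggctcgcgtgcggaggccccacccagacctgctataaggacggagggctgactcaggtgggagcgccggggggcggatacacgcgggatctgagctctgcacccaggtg
Ucp3: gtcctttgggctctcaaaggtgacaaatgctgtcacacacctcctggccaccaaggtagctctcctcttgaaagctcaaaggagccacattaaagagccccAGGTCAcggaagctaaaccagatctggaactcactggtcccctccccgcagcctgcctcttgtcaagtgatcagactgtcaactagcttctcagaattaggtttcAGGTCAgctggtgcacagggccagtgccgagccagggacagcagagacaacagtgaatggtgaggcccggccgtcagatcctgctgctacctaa
The Cpt2 window holds 3 GC boxes and no AGGTCA, the Ech1 window 2 GC boxes, the Acads window 1, and the Ucp3 window 2 AGGTCA motifs. Each of the 2 windows of Plin5 holds 1 AGGTCA and 2 GC boxes, but these windows overlap and share 1 of the GC boxes. The other windows of Slc27a1 hold 1 and 3 GC boxes and no AGGTCA. The windows of Hadha and Hadhb, the subunit genes of 1 enzyme, share 228 bases, since the genes lie head to head on chromosome 5 with starts at 30154980 and 30155253, 273 bases apart.

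The footprint comparison asks whether ribosomes carried less of these mRNAs in the KO hearts. All 33 members passed the filter on low values, and all 33 had a log2 difference below 0, against 28.9% of the 15031 genes tested. The median difference of the members was -0.998, against 0.36 for all genes tested, and single members ranged from -2.23 for Ucp3 to -0.07 for Acot13. The 2 KO libraries were lower than either WT library in 29 of 33 members, against 12.1% of all genes. By limma's test with Benjamini-Hochberg adjustment over all genes, 1 member was lower in KO, Cpt2, where 0.126% of all genes were called lower, and 0 members were higher, where 0.253% were called higher. At an unadjusted p under 0.05 there were 23 of 33 members, against 17.3% of all genes. With any 1 of the 4 libraries left out, the footprint calls of members and of all other genes alike were lost. The median member difference was then -1.15 to -0.88. When small RNA genes, unnamed models and pseudogenes were left out of the test, 10 members passed, where 0.395% of 12917 genes were called lower. They were Cpt2, Acaa2, Slc27a1, Etfdh, Hadh, Acsl1, Ucp3, Hadhb, Ech1 and Etfa.

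**Figure D1:**
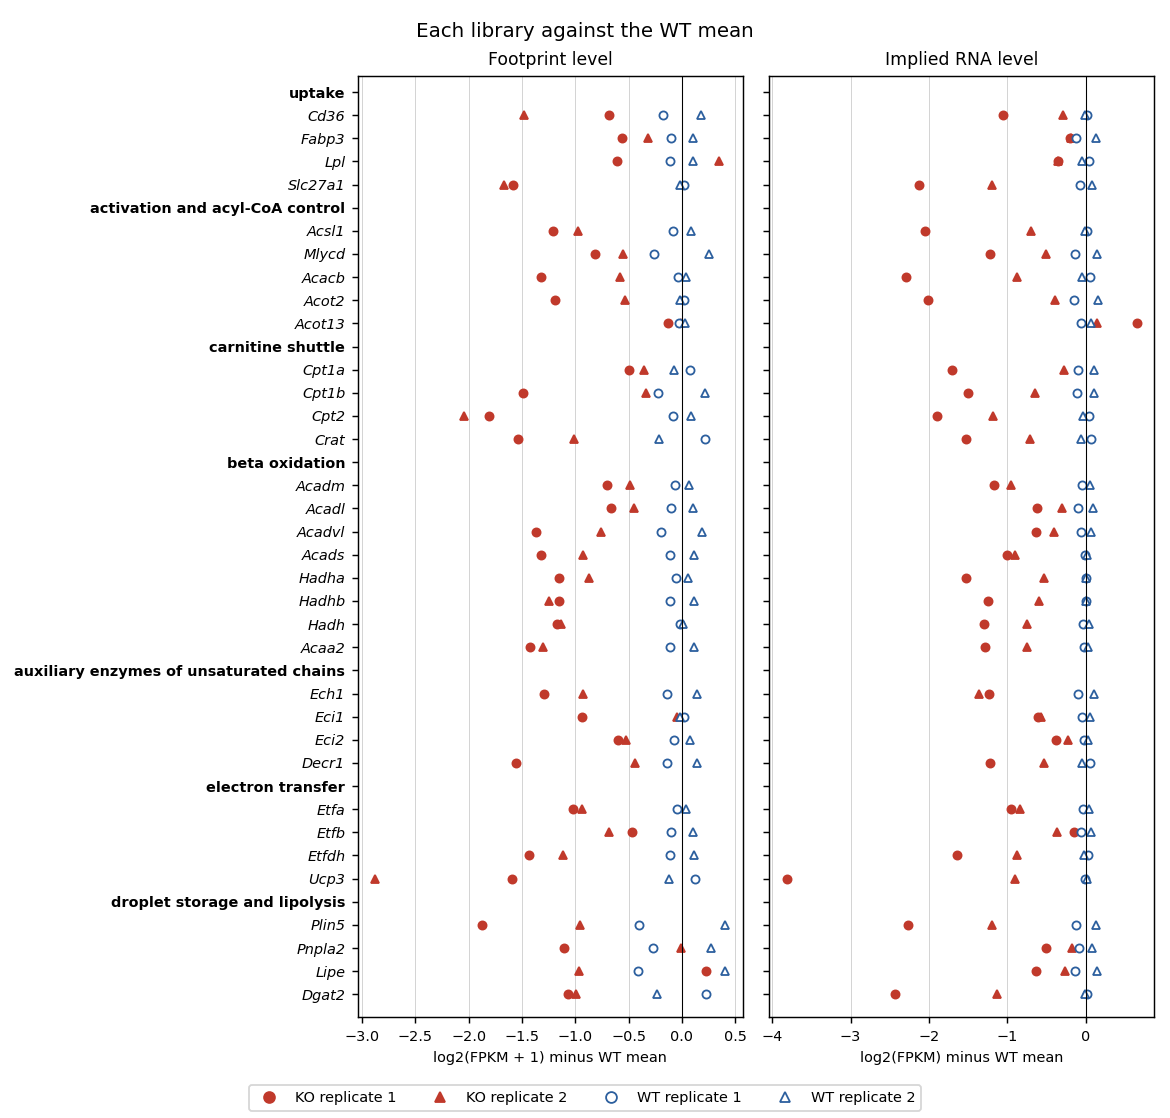
Footprint level (left, log2 of FPKM + 1) and implied RNA level (right, log2 of FPKM) of the 33 members in each library, each minus the mean of the 2 WT libraries, with KO libraries in filled red and WT libraries in open blue and replicates told apart by shape. In footprint level the KO symbols lie left of both WT symbols for 29 members, and in implied RNA level for 32, with Acot13 on the other side.

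The RNA comparison asks how far the RNA levels went the same way. In implied RNA level 32 of 33 members were below 0, against 35.4% of the 12529 genes tested, with a median of -0.99 for the members and 0.22 for all genes. Both KO libraries were below both WT libraries in 32 members, against 18.6% of all genes. Acot13 was the exception, with both KO libraries above both WT libraries, as in 44.2% of all genes. In all, 6 of 33 members were lower in KO by limma's test: Ech1, Cpt2, Slc27a1, Acads, Acadm and Plin5, with adjusted p from 0.0355 to 0.0464. Of all genes 1.53% were called lower and 4.20% higher, and 0 members were called higher. Calls over all genes were lower ones in 26.7% of cases, and in 48.7% after median-ratio scaling, which moved the median of all genes to 0.01 in RNA and to 0.03 in footprints and turned the sign of no member. Without small RNA genes, unnamed models and pseudogenes the calls were 8, with Dgat2 and Etfdh added, where 1.73% of genes were called lower. All 6 calls were lost without the mean-variance trend of the test (adjusted p from 0.0644 for Ech1 to 0.0926 for Plin5), and those of Acadm, Acads and Ech1 when either WT library was left out (adjusted p from 0.172 to 0.316).

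The KO libraries also differed from each other. In implied RNA level KO replicate 1 lay below KO replicate 2 in 30 of 33 members, with a median log2 difference of -0.66 between them, against 0.06 for all genes. The widest gap was that of Ucp3 at -2.91, and Acot13 went the other way at 0.52. Leaving out KO replicate 2 gave a median member difference between KO and WT of -1.24 with 25 members called lower, where 1110 of all genes were called lower and 2632 higher. Leaving out KO replicate 1 gave -0.60 with 12 members called lower, where 265 of all genes were called lower and 485 higher. In footprint level the gap between the KO replicates had a median of -0.23, close to the -0.25 of all genes, and the median member difference was -1.15 with KO replicate 2 left out and -0.88 with KO replicate 1 left out.

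**Figure D2:**
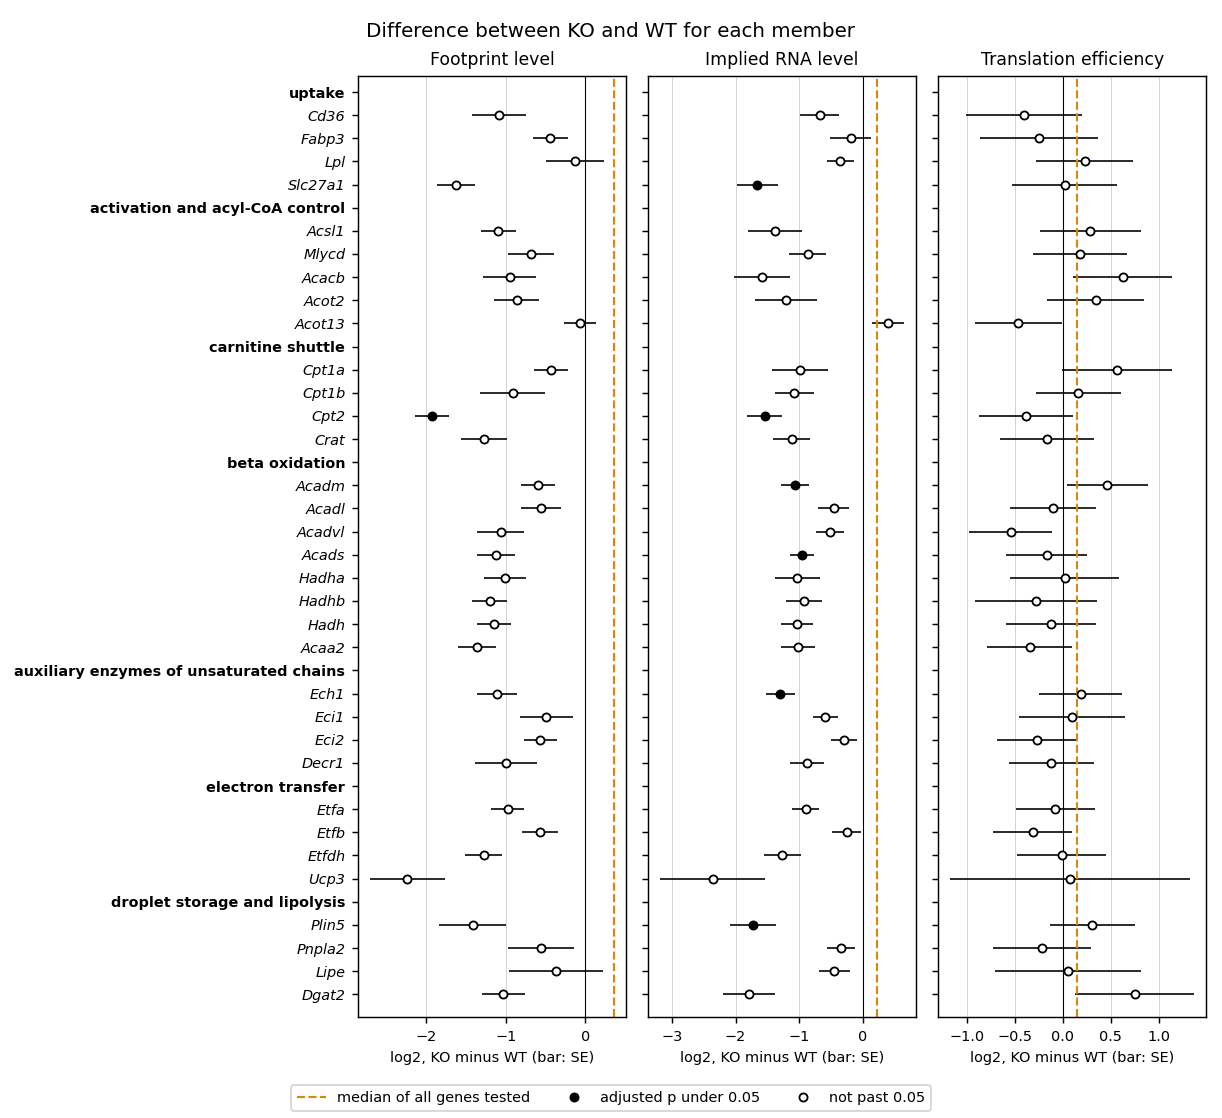
Log2 difference, KO minus WT, of each member in footprint level, implied RNA level and TE (points, with bars of 1 SE from limma), beside the median of all genes tested (dashed). Filled points passed limma's test at an adjusted p under 0.05: Cpt2 in footprints, 6 members in RNA and no member in TE, where the bars of most members cross 0.

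Uptake genes held both some of the strongest and some of the weakest differences. Slc27a1 (ENSMUSG00000031808, chromosome 8 from 71568728 to 71587307 in GRCm38) encodes FATP1, a membrane fatty acid transporter with acyl-CoA synthetase activity. It had footprint levels of 75.9 and 71.8 FPKM in KO, against 233 and 228 FPKM in WT (log2 difference -1.63, SE 0.24, adjusted p = 0.0844), and its implied RNA level was lower at 17.4 and 33.2 FPKM in KO, against 71.9 and 79.9 FPKM in WT (log2 difference -1.66, SE 0.32, adjusted p = 0.0433). KO and WT libraries did not overlap in either measure, and the RNA difference amounts to a 3.16-fold lower level in KO. Cd36, the main fatty acid translocase of the heart, read 4927 and 2821 FPKM in KO, against 6998 and 8922 FPKM in WT for footprints, without passing the test (adjusted p = 0.227), and 297 and 505 FPKM in KO, against 627 and 614 FPKM in WT for RNA. Fabp3, the cytosolic fatty acid binding protein of heart muscle, read 1518 and 1793 FPKM in KO, against 2089.7 and 2401 FPKM in WT for footprints, and its RNA level, 3070.1 and 3083 FPKM in KO, against 3230.3 and 3843 FPKM in WT, was the highest of all members in each library. Lpl, the lipase that frees fatty acids from lipoproteins, read 3899.6 and 7589 FPKM in KO, against 5520.0 and 6413 FPKM in WT for footprints. Its KO libraries fell on either side of the WT libraries, and the log2 difference of -0.13 was 0.35 without KO replicate 1.

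Of the 5 genes that activate fatty acids or control acyl-CoA, including the malonyl-CoA brake, 0 passed limma's test in footprints or RNA (3 and 4 at an unadjusted p under 0.05, where 17.3% and 28.3% of all genes were). Acsl1, the main long-chain acyl-CoA synthetase of the heart, had the largest footprint difference of this step, at 1387 and 1631 FPKM in KO, against 3020.2 and 3411 FPKM in WT (log2 difference -1.09, SE 0.22, adjusted p = 0.147). In RNA it read 60.3 and 154 FPKM in KO, against 252 and 249 FPKM in WT (log2 difference -1.38, SE 0.42, adjusted p = 0.0971), with the KO replicates far apart and the WT replicates close. Acacb, which makes the malonyl-CoA that blocks CPT1 at the mitochondrion, read 45.96 and 77.3 FPKM in KO, against 113 and 119 FPKM in WT for footprints (log2 difference -0.95, SE 0.34, adjusted p = 0.252) and 11.2 and 29.7 FPKM in KO, against 56.5 and 52.9 FPKM in WT for RNA (log2 difference -1.59, SE 0.43, adjusted p = 0.0778). With any 1 library left out its RNA difference was -2.29 to -0.88. Mlycd, which removes malonyl-CoA, read 94.5 and 114 FPKM in KO, against 139.9 and 200.3 FPKM in WT for footprints (log2 difference -0.69). The enzyme that makes the brake and the one that removes it both had KO libraries below WT libraries. Of the thioesterases, which split acyl-CoA, Acot2 read 166 and 262 FPKM in KO, against 384 and 376 FPKM in WT for footprints and Acot13 1181 and 1283 FPKM in KO, against 1267 and 1319.6 FPKM in WT. Counting of reads shared with near-identical genes is not described, so the values of Acot2, a close copy of Acot1, are uncertain. Acot13 was the member with the smallest footprint difference, and its RNA level was 285 and 199 FPKM in KO, against 173 and 190.2 FPKM in WT (log2 difference 0.39, adjusted p = 0.334).

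The carnitine shuttle held the 1 member called in both measures. Cpt2 (ENSMUSG00000028607, chromosome 4 from 107903982 to 107923589) encodes the inner-membrane carnitine palmitoyltransferase, which turns acylcarnitine back into acyl-CoA. Its footprint level was 308 and 262 FPKM in KO, against 1020.4 and 1148 FPKM in WT, and the KO values were 3.80-fold lower on the log2(FPKM + 1) scale (log2 difference -1.93, SE 0.22, adjusted p = 0.0407). Cpt2 RNA was at 24.1 and 39.4 FPKM in KO, against 92.2 and 87.5 FPKM in WT (log2 difference -1.55, SE 0.27, adjusted p = 0.0363). The groups did not overlap in either measure. The footprint call was lost with a pseudocount of 0.1 (adjusted p = 0.0730), without the low-value filter (0.0990) and without the trend (0.199). It was also lost with any 1 library left out, as were the footprint calls of all other genes, at log2 differences of -2.04 to -1.81. The RNA difference of Cpt2 was -1.90 to -1.19 with any 1 library left out.

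The outer-membrane step is run by Cpt1b, the muscle isoform, and Cpt1a, the isoform of liver and fetal heart. Cpt1b read 383 and 857 FPKM in KO, against 928 and 1259 FPKM in WT for footprints, and Cpt1a read 337 and 372 FPKM in KO, against 503 and 453 FPKM in WT. The ratio of Cpt1b to Cpt1a was 1.14 and 2.30 in KO, against 1.85 and 2.78 in WT for footprints, so the groups overlapped, and 8.71 and 5.82 in KO, against 7.54 and 7.54 in WT for RNA. The ratio of Cpt2 to Cpt1b was 0.804 and 0.305 in KO, against 1.10 and 0.912 in WT for footprints, and 0.284 and 0.259 in KO, against 0.416 and 0.340 in WT for RNA. Both KO libraries were below both WT libraries for that ratio in each measure. No ratio of 2 genes was tested, here or below, and the share of other gene pairs so separated was not computed. Crat, which joins short acyl groups to carnitine, read 148 and 212 FPKM in KO, against 501 and 371 FPKM in WT for footprints and 49.97 and 87.7 FPKM in KO, against 150.1 and 138 FPKM in WT for RNA (adjusted p = 0.0731).

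All 8 genes of the beta oxidation spiral had both KO libraries below both WT libraries in footprints and in RNA, as did 12.1% and 18.6% of all genes, with median log2 differences of -1.09 and -0.99. Acadm (ENSMUSG00000062908, chromosome 3 from 153922353 to 153944643), the medium-chain acyl-CoA dehydrogenase, was lower in RNA at 187 and 217 FPKM in KO, against 405 and 437 FPKM in WT (log2 difference -1.06, SE 0.22, adjusted p = 0.0463). Its footprint level, 1143 and 1335 FPKM in KO, against 1783 and 1955 FPKM in WT, differed less (log2 difference -0.60, SE 0.21, adjusted p = 0.258). Acads (ENSMUSG00000029545, chromosome 5 from 115110299 to 115119346), the short-chain dehydrogenase, was lower in RNA at 40.9 and 43.8 FPKM in KO, against 81.8 and 82.7 FPKM in WT (log2 difference -0.96, SE 0.19, adjusted p = 0.0444), with footprints at 288 and 379 FPKM in KO, against 666 and 780.4 FPKM in WT (log2 difference -1.12, SE 0.24, adjusted p = 0.154). The RNA replicates of Acads lay close together in each group, well apart from the other group. Acaa2, the thiolase of the last step, had the largest footprint difference of the spiral, at 3573 and 3893 FPKM in KO, against 8860.0 and 10396 FPKM in WT (log2 difference -1.36, SE 0.24, adjusted p = 0.117), and its RNA level was 238 and 343 FPKM in KO, against 569 and 589 FPKM in WT (log2 difference -1.02, SE 0.26, adjusted p = 0.0689).

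Hadha and Acadl had the highest footprint levels of the members in each library. Acadl, the long-chain dehydrogenase of mouse heart, read 6671 and 7742 FPKM in KO, against 9876 and 11387 FPKM in WT, and Acadvl, the very-long-chain enzyme of the inner membrane, read 1705 and 2615 FPKM in KO, against 3866 and 5048 FPKM in WT. The ratio of Acadl to Acadm was 5.84 and 5.80 in KO, against 5.54 and 5.82 in WT for footprints, an overlap. For RNA it was 1.76 and 1.88 in KO, against 1.16 and 1.23 in WT, with both KO libraries above both WT libraries. Hadh, the 3-hydroxyacyl-CoA dehydrogenase of the matrix, read 2336 and 2397 FPKM in KO, against 5202 and 5303 FPKM in WT (adjusted p = 0.124). The replicates of Hadh lay close together in each group, and the groups were far apart.

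Hadha and Hadhb encode the α and β subunits of the mitochondrial trifunctional protein, which carries out the last steps on long chains. Hadha alone held 17.2% and 17.6% of the members' summed footprint FPKM in KO, against 19.9% and 18.7% in WT. It read 8268 and 9999 FPKM in KO, against 17691 and 19033 FPKM in WT for footprints and 169 and 339 FPKM in KO, against 488 and 490.0 FPKM in WT for RNA. Hadhb read 217 and 203 FPKM in KO, against 447 and 522 FPKM in WT for footprints and 255 and 402 FPKM in KO, against 607 and 609 FPKM in WT for RNA. The Hadha to Hadhb ratio was 38.1 and 49.3 in KO, against 39.6 and 36.4 in WT for footprints, but 0.662 and 0.843 in KO, against 0.804 and 0.804 in WT for RNA. Their TE thus stood far apart in every library, at 48.97 and 29.5 in KO, against 36.3 and 38.8 in WT for Hadha and 0.850 and 0.504 in KO, against 0.736 and 0.858 in WT for Hadhb. Both subunits read lower in KO by similar log2 amounts, -1.01 and -1.20 for footprints, and the cause of the gap between them was not tested.

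**Figure D3:**
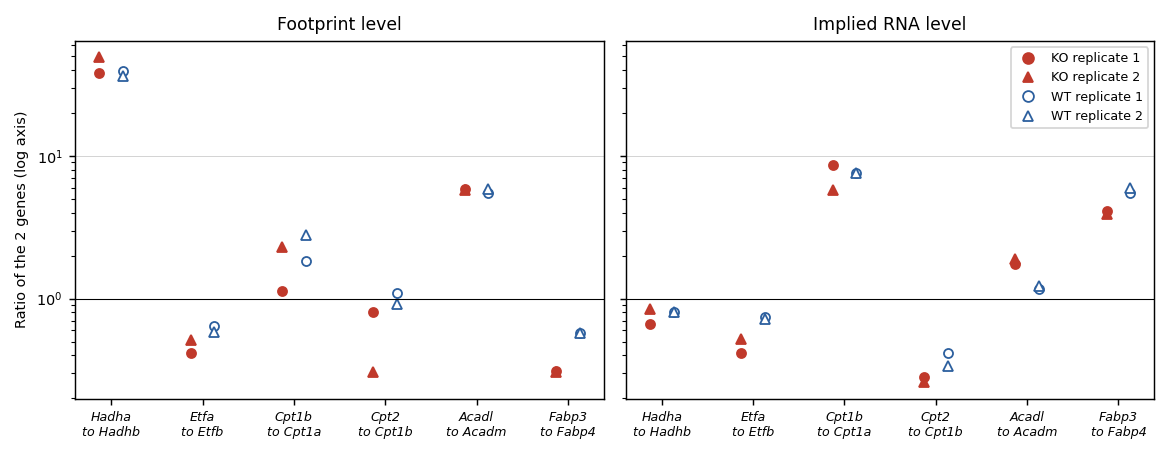
Ratio of 2 genes in each library (log axis) for 6 chosen pairs of subunits, isoforms or other related genes. Footprint level is on the left and implied RNA level on the right, with KO libraries in filled red and WT libraries in open blue. Hadha stands 36.4 to 49.3 times above Hadhb in footprints but below it in RNA. Etfa to Etfb, Cpt2 to Cpt1b and Fabp3 to Fabp4 have both KO libraries below both WT libraries in each panel. The share of other gene pairs so separated was not computed.

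Auxiliary enzymes prepare the double bonds of unsaturated chains for the spiral. Ech1 (ENSMUSG00000053898, chromosome 7 from 28825338 to 28832239), a dienoyl-CoA isomerase, had the lowest adjusted p of all members in RNA, at 264 and 242 FPKM in KO, against 581 and 665 FPKM in WT (log2 difference -1.30, SE 0.23, adjusted p = 0.0355). Its footprint level was 1889 and 2428 FPKM in KO, against 4201 and 5092 FPKM in WT (log2 difference -1.11, SE 0.25, adjusted p = 0.158). The KO and WT libraries of Ech1 did not overlap in either measure. Decr1, the 2,4-dienoyl-CoA reductase, read 412 and 898 FPKM in KO, against 1106 and 1338 FPKM in WT for footprints, with KO replicate 1 much lower than KO replicate 2. Eci1 and Eci2, the enoyl-CoA isomerases, had smaller differences, -0.49 and -0.56 in footprints and -0.59 and -0.30 in RNA. In footprints Eci1 read 188 and 349.8 FPKM in KO, against 366 and 355 FPKM in WT, so that KO replicate 2 lay just below the WT libraries.

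Electron transfer from the acyl-CoA dehydrogenases runs through ETF, made of Etfa and Etfb, to the ubiquinone reductase Etfdh. Etfa read 1271 and 1349 FPKM in KO, against 2501 and 2655 FPKM in WT for footprints and 162 and 175 FPKM in KO, against 307 and 323 FPKM in WT for RNA (adjusted p = 0.0561). Etfb read 3044 and 2629 FPKM in KO, against 3919.5 and 4525 FPKM in WT for footprints and 389 and 336 FPKM in KO, against 415 and 452 FPKM in WT for RNA (adjusted p = 0.479). The ratio of Etfa to Etfb in this dimer was 0.417 and 0.513 in KO, against 0.638 and 0.587 in WT for footprints, and 0.417 and 0.522 in KO, against 0.740 and 0.716 in WT for RNA. For that ratio the KO libraries were the lower ones in both measures. Etfdh read 1487 and 1850.0 FPKM in KO, against 3708 and 4354 FPKM in WT for footprints (adjusted p = 0.124) and 65.9 and 112 FPKM in KO, against 210.2 and 202 FPKM in WT for RNA (adjusted p = 0.0542). Ucp3, an uncoupling protein homologue of the muscle inner membrane whose expression follows fatty acid supply, had the largest differences of all members. Its footprints were 46.8 and 18.7 FPKM in KO, against 156 and 132 FPKM in WT (log2 difference -2.23, SE 0.47, adjusted p = 0.152), and its RNA level was 2.65 and 19.9 FPKM in KO, against 36.8 and 37.5 FPKM in WT (log2 difference -2.36, SE 0.82, adjusted p = 0.127). KO replicate 1 was the higher KO library for footprints and the lower one for RNA, and neither difference passed the test with all 4 libraries. With any 1 library left out the RNA difference of Ucp3 passed, at -3.81 without KO replicate 2 and -0.90 without KO replicate 1 (adjusted p from 1.17e-05 to 0.0396 over the 4), where a group left with 1 library is assumed to vary like the other.

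Of the 4 genes of the lipid droplet, 1 was lower in RNA, Plin5, and 0 passed limma's test in footprints (2 at an unadjusted p under 0.05, against 17.3% of all genes). Plin5 (ENSMUSG00000011305, chromosome 17 from 56111597 to 56117606), the droplet coat protein that ties droplets to mitochondria in oxidative tissues, was lower in RNA at 11.5 and 24.2 FPKM in KO, against 50.6 and 60.5 FPKM in WT (log2 difference -1.73, SE 0.36, adjusted p = 0.0464). Its footprint level was 103 and 196 FPKM in KO, against 288 and 504 FPKM in WT (log2 difference -1.41, SE 0.42, adjusted p = 0.218), without overlap but with wide replicates. Dgat2, which adds the last acyl group of triglyceride, had the largest RNA difference of this step, at 22.5 and 55.5 FPKM in KO, against 123 and 120.3 FPKM in WT (log2 difference -1.79, SE 0.41, adjusted p = 0.0544). With any 1 library left out that difference was -2.44 to -1.13. Footprints of Dgat2 were 90.5 and 95.3 FPKM in KO, against 224 and 162 FPKM in WT (log2 difference -1.03, SE 0.27, adjusted p = 0.186). Pnpla2, the triglyceride lipase ATGL, read 244 and 521 FPKM in KO, against 435 and 633 FPKM in WT for footprints, and Lipe, hormone-sensitive lipase, 19.7 and 8.08 FPKM in KO, against 12.3 and 22.5 FPKM in WT. The groups overlapped for both lipases in footprints, and for Lipe the sign turned without WT replicate 2 (0.04) and without KO replicate 2 (0.23). Of 10 adipocyte markers 3, 7, 9 and 7 were listed at 0 in KO replicates 1 and 2 and WT replicates 1 and 2. Footprints of the 10 summed to 108 and 61.3 FPKM in KO, against 67.1 and 174 FPKM in WT. These sums overlap, and that of WT replicate 2 was the highest. Adipoq, Plin1 and Ucp1, defining markers of fat cells, read 4.73, 13.3 and 12.6 FPKM in KO replicate 1 and were at 0 in the other libraries, except Ucp1 at 0.324 FPKM in WT replicate 2. The part of fat cells in the values of Lipe, Plin5 and Ucp3 in KO replicate 1 was not tested.

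Within a library the members stood high among all genes tested. Their median percentile in footprint level was 94.6 and 96.6 in KO, against 97.7 and 98.2 in WT, and 22 and 22 members were above the 90th percentile in KO, against 29 and 29 in WT. Lipe was the lowest member in each library, at percentile 46.2 and 27.7 in KO, against 40.4 and 54.9 in WT. Summed footprints of the 33 members were 47991 and 56800.4 FPKM in KO, against 88773 and 101650 FPKM in WT, and the KO mean was 0.550 of the WT mean. Summed RNA levels were 7164 and 8372 FPKM in KO, against 11025 and 12003 FPKM in WT, a ratio of 0.675. For the 10 cardiomyocyte markers these ratios were 0.646 in footprints and 0.756 in RNA, and the difference from the members was not tested. With small RNA genes, unnamed models and pseudogenes left out, the members made up 2.50% and 2.40% of footprint FPKM in KO, against 4.34% and 4.85% in WT. With all genes kept these shares were 0.626% and 0.650% in KO, against 1.15% and 1.44% in WT. By step, the ratio of the KO mean sum to the WT mean sum in footprints was lowest for the carnitine shuttle (0.466) and highest for uptake (0.692). The order of steps depends on the measure. By median log2 footprint difference the lowest was electron transfer (-1.13), with the carnitine shuttle at -1.10. Uptake (-0.76) was again the highest, but near the auxiliary enzymes (-0.78) and the droplet genes (-0.79).

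**Figure D4:**
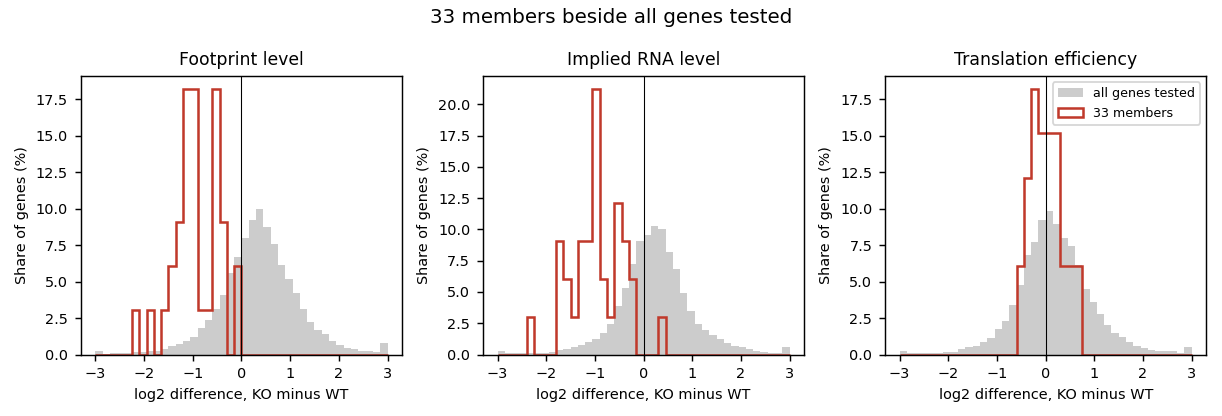
Distribution of log2 differences, KO minus WT, as a share of genes in percent, for the 33 members (red outline) and all genes tested (grey) in footprint level, implied RNA level and TE, with values beyond 3 placed in the end bins. The members' medians of -0.998 in footprints and -0.99 in RNA lie left of the all-gene medians of 0.36 and 0.22, while in TE the outlines overlap, at -0.01 for the members and 0.15 for all genes.

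Translation efficiency asks whether footprints differed beyond the RNA. The log2 TE difference was below 0 in 17 of 33 members, against 40.5% of 12529 genes, with a median of -0.01 for the members and 0.15 for all genes. By limma's test 0% of genes were called lower, and no member or other gene passed in either direction. At an unadjusted p under 0.05 there were 0 of 33 members and 6.06% of all genes, and the members' adjusted p ran from 0.881 to 0.998. Both KO libraries were below both WT libraries in 8 members, against 12.0% of all genes, and above them in 2, Acadm and Acacb, against 24.0%. Acadm had a TE of 6.12 and 6.15 in KO, against 4.40 and 4.47 in WT, and Acacb of 4.12 and 2.61 in KO, against 2.00 and 2.25 in WT. The largest differences were 0.75 for Dgat2 and -0.54 for Acadvl, and neither passed. Dgat2 had a TE of 4.03 and 1.72 in KO, against 1.81 and 1.35 in WT, so the groups overlapped, and Acadvl of 6.29 and 8.24 in KO, against 9.57 and 11.5 in WT. TE was widest between replicates for Ucp3, at 17.7 and 0.939 in KO, against 4.24 and 3.51 in WT. A member's TE is its footprint level over its RNA level, so the 3 measures are not independent. The SE of the members' TE differences ran from 0.41 for Etfa to 1.25 for Ucp3.

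**Figure D5:**
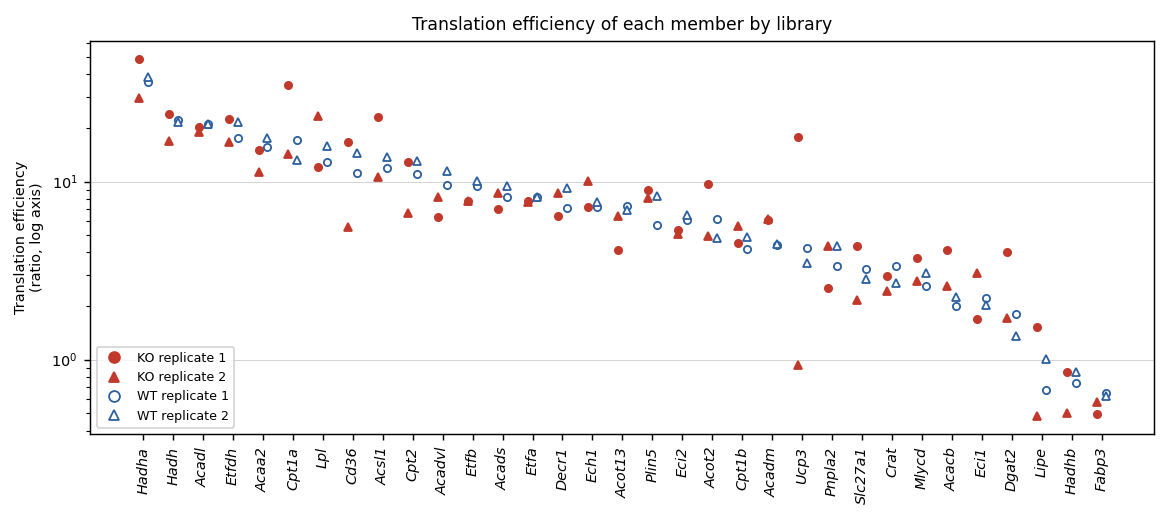
Translation efficiency of the 33 members in each library (ratio, log axis), ordered by WT mean from high to low, with KO libraries in filled red and WT libraries in open blue. Values run from 0.482 for Lipe in KO replicate 2 to 49.0 for Hadha in KO replicate 1, and KO and WT symbols overlap for 23 of the 33 members.

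Other genes of fat metabolism were counted in lists of which some genes are known to act elsewhere. Of all genes tested, 28.9% were below 0 in footprints and 35.4% in RNA, 0.126% and 1.53% were called lower, and 17.3% and 28.3% had an unadjusted p under 0.05. Of 25 other mitochondrial oxidation genes, 19 of 25 tested were below 0 in footprints (median -0.51; 0 called, 10 at an unadjusted p under 0.05) and 21 of 23 in RNA (median -0.71; 2 called lower). The called genes were Acss1, which activates acetate in mitochondria, at 13.5 and 30.6 FPKM in KO, against 76.1 and 63.6 FPKM in WT for RNA (log2 difference -1.78, SE 0.38, adjusted p = 0.0493), and Ivd, a dehydrogenase of leucine breakdown, at 18.02 and 21.2 FPKM in KO, against 58.1 and 42.4 FPKM in WT (log2 difference -1.34, SE 0.24, adjusted p = 0.0364). Of 20 peroxisomal genes 12 were below 0 in footprints (median -0.27; 0 called, 3 at an unadjusted p under 0.05) and 16 of 19 in RNA (median -0.45; 1 called lower). That gene was Abcd2, a peroxisomal transporter of very-long-chain acyl-CoA, at 0.422 and 0.477 FPKM in KO, against 1.63 and 1.57 FPKM in WT (log2 difference -1.83, SE 0.39, adjusted p = 0.0490). Of 24 other droplet and glycerolipid genes 16 were below 0 in footprints (median -0.18; 0 called, 6 at an unadjusted p under 0.05) and 17 in RNA (median -0.34; 2 called lower). Both called genes, Fitm1 and Fitm2, encode endoplasmic reticulum proteins that help droplets form, and Fitm1 read 41.6 and 51.1 FPKM in KO, against 119 and 142 FPKM in WT for RNA (log2 difference -1.50, SE 0.22, adjusted p = 0.0267), while Fitm2 read 18.2 and 26.8 FPKM in KO, against 59.9 and 47.9 FPKM in WT (log2 difference -1.28, SE 0.26, adjusted p = 0.0458). Of 18 other uptake and activation genes, 6 were below 0 in footprints (median 0.12; 0 called, 5 at an unadjusted p under 0.05) and 6 of 18 in RNA (median 0.13; 0 called, 6 at an unadjusted p under 0.05), so the share below 0 was near that of all genes. Among them is Fabp4, an endothelial fatty acid binding protein, and the ratio of Fabp3 to Fabp4 in footprints was 0.309 and 0.306 in KO, against 0.571 and 0.578 in WT.

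Of 24 regulators of fatty acid oxidation, 14 were below 0 in footprints (median -0.05, against 0.36 for all genes; 0 called, 1 at an unadjusted p under 0.05) and 18 in RNA (median -0.29, against 0.22; 1 called lower, 1 called higher). Ppara, the nuclear receptor PPARα, had footprints of 105 and 111 FPKM in KO, against 128 and 131 FPKM in WT, and RNA levels of 1.55 and 5.85 FPKM in KO, against 8.47 and 5.87 FPKM in WT (log2 difference -1.23, SE 0.60, adjusted p = 0.228). Ppargc1a, the coactivator PGC-1α, read 89.4 and 133 FPKM in KO, against 184 and 134 FPKM in WT for footprints and 6.14 and 14.98 FPKM in KO, against 28.1 and 29.9 FPKM in WT for RNA (log2 difference -1.60, SE 0.41, adjusted p = 0.0683). For RNA the KO libraries of Ppargc1a were below both WT libraries, and the difference did not pass. Esrra, the receptor ERRα, read 43.2 and 83.4 FPKM in KO, against 110.1 and 96.9 FPKM in WT for footprints and 100.3 and 71.2 FPKM in KO, against 62.7 and 64.6 FPKM in WT for RNA, a log2 difference of -0.77 and 0.41. Rxrg, a retinoid X receptor that can pair with PPARα, read 33.3 and 29.3 FPKM in KO, against 140.1 and 155 FPKM in WT for footprints (log2 difference -2.20, SE 0.28, adjusted p = 0.0570) and 3.24 and 7.60 FPKM in KO, against 20.6 and 16.2 FPKM in WT for RNA (log2 difference -1.88, SE 0.41, adjusted p = 0.0503). Its groups were far apart in both measures, and both adjusted p values fell just short of the threshold. The called regulators were Klf15, a transcription factor of muscle lipid use, lower in RNA at 5.09 and 4.87 FPKM in KO, against 11.3 and 10.9 FPKM in WT (log2 difference -1.16, SE 0.22, adjusted p = 0.0431), and Prkab2, a subunit of the kinase AMPK, higher in RNA at 23.9 and 18.3 FPKM in KO, against 8.75 and 9.52 FPKM in WT (log2 difference 1.19, SE 0.23, adjusted p = 0.0436). Klf15 footprints were 2.74 and 4.28 FPKM in KO, against 2.84 and 4.38 FPKM in WT, and the groups overlapped.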

How the data were processed

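Ribosome profiling libraries of hearts (2 libraries labelled KO and 2 labelled WT) were analysed from the authors' tables of 55382 Ensembl genes. The submitters' processing notes name the GRCm38 (mm10) genome, the aligners STAR 2.7.4a and Bowtie 1.3.1, the counting tools Cufflinks 2.2.1 and HTSeq 0.13.5, and cutadapt 3.7 and FastQC 0.11.9. The settings of these tools and the making of the RNA libraries were not given in the sources used here. Per the labels' protocols, footprints were made with cycloheximide at 100 µg/mL and RNase I, with depletion of ribosomal RNA. The footprint values are FPKM as deposited by the authors, and TE is a ratio deposited by the authors. Dividing FPKM by TE left no more than 6 significant digits for all 59296 of 59296 values (tolerance 1e-10), so the quotient was used as the implied RNA level. A TE of 0 was taken as missing. An FPKM of 0 is described as listed at 0.

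Genes of at least 1 FPKM in at least 2 of 4 libraries (15031) were tested as log2(FPKM + 1). Implied RNA level and TE were tested as log2 values in the 12529 genes of these with a TE above 0 in all 4 libraries. The two-sided fit had no covariates and used limma 3.58.1 in R 4.3.3 (lmFit, eBayes with trend), adjusted by Benjamini-Hochberg over all genes and called at 0.05. The fit was also run on simulated data, drawn as independent normal values without a shift over all genes. Unlike these data in that respect, the simulation does not check the calls reported here. Fold changes on the log2(FPKM + 1) scale understate the change of low genes. An exact permutation test of 2 against 2 libraries cannot go below p = 0.333, so no single value was tested that way. Members and gene lists were chosen with earlier results of these data known, so no list was tested and lists are described by counts and medians. Members called in any test, or with the largest difference of their step in footprints or RNA, are given in full. Of other lists the genes called in footprints or RNA are named, with Ppara, Ppargc1a, Esrra and Rxrg whatever their values. The pathway lists were 6 (other uptake and activation, other mitochondrial oxidation, peroxisomal oxidation, other droplet and glycerolipid genes, fatty acid synthesis, regulators) and the marker lists 6 (cardiomyocyte, fibroblast, endothelial, macrophage, adipocyte, smooth muscle and pericyte). Gene coordinates and promoter windows are those of RefSeq on GRCm38.p6. Alternatives were median-ratio scaling, other pseudocounts and filters, named genes only, no trend, the replicate number as a block and each library left out.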

Additional observations from a re-analysis of the deposited data

How the results depend on the processing

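Each comparison was repeated under other settings. Of 396 footprint differences of single members, 376 kept direction and call, 7 lost a call, 10 gained one and 3 changed sign. Those 3 were Lpl without KO replicate 1 (0.35; -0.61 to 0.35 with 1 library left out) and Lipe without WT replicate 2 (0.04) and without KO replicate 2 (0.23; -0.96 to 0.23). Of 396 differences in implied RNA level, 318 kept both, 14 lost a call, 64 gained one and 0 changed sign. Ucp3, Dgat2 and Acacb gained an RNA call with the replicate block. They also gained it with each library left out, where a group left with 1 library is assumed to vary like the other. The median member difference in footprints stayed on its side in each setting, at -1.15 to -0.88 with 1 library left out.

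The count of members lower in footprints, 1, was 2 after median-ratio scaling and 10 with named genes only. It was 0 with a pseudocount of 0.1, without the filter and without the trend. The call was also lost with any 1 library left out, as were the footprint calls of all other genes. For all genes the footprint calls were 19 lower and 38 higher. They became 30 lower after scaling, 11 and 23 with a pseudocount of 0.1, 7 and 16 without the filter, 51 and 169 with named genes only, 23 higher without the trend, and 0 and 0 with any 1 library left out.

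For RNA, 6 members were lower, against 11 after scaling, 0 without the trend and 6 to 25 with 1 library left out, where 0 to 1 were higher (Acot13 without KO replicate 2). All-gene RNA calls, 192 lower and 526 higher, became 308 and 324 after scaling, 17 and 50 without the trend, and 222 to 1110 and 482 to 2632 with 1 library left out. The median member difference of -0.99 was -1.21 after scaling and -1.24 to -0.60 with 1 library left out, or -1.49 to -0.79 relative to all genes.

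For TE, 0 genes were lower or higher. There was 1 lower with a filter of 5 FPKM, 1 with named genes only and 1 without the trend, and 0 to 10 lower and 0 to 23 higher with 1 library left out. The median member TE difference of -0.01 was -0.17 after scaling and -0.15 to 0.089 with 1 library left out, or -0.48 to 0.12 relative to all genes.

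The labels do not say whether replicate numbers pair the samples. Deviations from the group means of same-numbered libraries correlated at -0.06 for footprints, -0.22 for RNA and -0.02 for TE. With 2 libraries per group these correlations cannot decide whether same-numbered libraries are paired. With the replicate number as a block, 118 genes were higher in footprints, 11 members were lower in RNA (all genes 401 lower and 1028 higher), with the calls of Acadm (adjusted p = 0.0858) and Acads (0.0698) lost, and TE gave 52 lower and 126 higher. For RNA, the crossed pairing (KO replicate 1 with WT replicate 2, and the other way round), chosen after seeing the data because of the negative correlation, called 23 members lower and 829 genes lower and 2412 higher. Depth in reads is unknown, so no counting error could be set beside any value. The causes of these changes were not tested.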

Other observations

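Of 14 genes of fatty acid synthesis, 2 were below 0 in footprint level, against 28.9% of all genes tested, with a median log2 difference of 0.62, against 0.36 for all genes. In 9 of them both KO libraries were above both WT libraries, against 39.5% of all genes, and 0 passed limma's test (4 at an unadjusted p under 0.05, against 17.3% of all genes). In implied RNA level 6 of 14 were below 0, against 35.4% of all genes, the median was 0.05, against 0.22 for all genes, and 0 passed (3 at an unadjusted p under 0.05, against 28.3% of all genes). The difference from the oxidation genes was not tested.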
